A study of Homo sapiens with 5 samples.

Results

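The family of miR-103 and miR-107 is made by 3 hairpins that sit inside pantothenate kinase (PANK) genes. Its rows were chosen by name alone: hsa-miR-103a-3p, hsa-miR-107, and every human row whose name begins with hsa-miR-103a- or hsa-miR-103b. The rule found 4 of the 2565 human miRNA rows: hsa-miR-103a-3p, hsa-miR-107, hsa-miR-103a-2-5p and hsa-miR-103b. Of these 4, 2 had counts and passed the low-count filter (hsa-miR-107 and hsa-miR-103a-2-5p), and 2 are listed at 0 in every library (hsa-miR-103a-3p and hsa-miR-103b).

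The rows come from small RNA sequencing of MCF10A, an immortalized, non-tumorigenic line of human mammary epithelium grown with horse serum, epidermal growth factor, insulin, cholera toxin and hydrocortisone. There are 3 libraries of attached cells on uncoated plates, with a time label of 0 h, and 2 of detached cells kept for 24 h on plates coated with 2% poly-HEMA, to which cells do not adhere. The design text gives 24 h for the attached cells as well. Nothing in the labels says that replicates came from separate cultures, so p-values measure the spread between these libraries alone, which may be technical. The question is how miRNA levels differ once these cells lose their attachment.

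Pantothenate kinases catalyse the first committed step of coenzyme A synthesis, and each of the family's hairpins is transcribed with its host gene. The family is known for repressing DICER1, the enzyme that cuts miRNA precursors, and for regulating insulin sensitivity and lipid metabolism through caveolin-1. PANK1, the host of miR-107, is a known p53 target. The 3p arm is the guide strand, the one mostly loaded into Argonaute, and the 5p arm is the passenger strand.

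In hg38 coordinates, MIR107 lies on the minus strand of chromosome 10 from 89592747 to 89592827, MIR103A1 on the minus strand of chromosome 5 from 168560896 to 168560973, and MIR103A2 on the plus strand of chromosome 20 from 3917494 to 3917571. GENCODE 29 places each in intron 5 of its host on the host's strand: PANK1 for MIR107, PANK3 for MIR103A1 and PANK2 for MIR103A2. None overlaps an exon of the host transcript in which the intron was numbered, each with 7 exons. The introns measure 4419, 2235 and 1620 bp in that order. The hairpins are shown because they are where the members come from. Capitals mark the mature arms that RefSeq (GRCh38.p14) annotates, both arms in the MIR103A hairpins and the 3p arm alone in MIR107.
MIR107: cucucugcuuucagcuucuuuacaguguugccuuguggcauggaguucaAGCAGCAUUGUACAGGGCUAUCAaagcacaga
MIR103A1: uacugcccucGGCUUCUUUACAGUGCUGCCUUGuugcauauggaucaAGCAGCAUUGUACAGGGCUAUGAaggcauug
MIR103A2: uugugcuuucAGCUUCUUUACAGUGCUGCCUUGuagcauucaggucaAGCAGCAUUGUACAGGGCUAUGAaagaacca

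The mature sequences decide how far the names can be told apart. They are given 5′ to 3′ with the seed, bases 2 to 8, in capitals.
hsa-miR-103a-3p: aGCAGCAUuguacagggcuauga
hsa-miR-107: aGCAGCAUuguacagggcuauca
hsa-miR-103b: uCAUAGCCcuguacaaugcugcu
hsa-miR-103a-2-5p: aGCUUCUUuacagugcugccuug
hsa-miR-103a-1-5p: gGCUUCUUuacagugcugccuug

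The guides miR-103a-3p and miR-107 have the same seed and differ by 1 base of 23, G22C counted from the 5′ end with miR-103a-3p first. A read that ends within the first 21 bases therefore matches both, and how such reads were assigned is not given in the sources used here. The counts under miR-107 may thus hold reads of miR-103a-3p. The passenger arms of MIR103A1 and MIR103A2 differ by G1A, with miR-103a-1-5p first. No row named hsa-miR-103a-1-5p was analysed here, so reads of either hairpin may stand under miR-103a-2-5p. The closest stretch of the MIR107 hairpin differs from miR-103a-2-5p by C16U.

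miR-103a-3p received 0 counts in each library, of 8805009 to 15793173 human miRNA counts. Taken as counting, a 0 allows up to 3 counts (one-sided 95% limit), or 0.190 to 0.341 counts per 1000000 (CPM). This limit covers only counts listed under the name, not the level of the miRNA. Its opposite-strand name, miR-103b, is also at 0 in all 5 libraries. The other arm of MIR103A2, miR-103a-2-5p, had 262, 40 and 371 counts in the attached libraries (replicates 1 to 3, the order kept throughout), against 366 and 422 after detachment. In these libraries the passenger arm of a MIR103A hairpin was counted 1461 times in all and its guide not at all.

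miR-103b is the exact reverse complement of miR-103a-3p, with 0 differences over 23 bases. Most other names in that position were listed at 0 as well. Of 26 rows whose whole sequence lies inside the reverse complement of another human miRNA name, 25 (96.2%) were at 0 in all 5 libraries. They include miR-423-5p, whose other arm miR-423-3p had 102951 counts in all, miR-7-5p, whose other arm miR-7-1-3p had 1846, and miR-374b-5p, whose other arm miR-374b-3p had 322. The exception was miR-3529-3p, the opposite-strand partner of miR-7-5p, with 3633 counts. For others of the 26 the hairpin's other arm was scarce too, as miR-338-5p with 2 counts in all and miR-3120-5p with 0. Partners of equal length, such as miR-103a-3p and miR-103b, both stand among the 26. The longer partners of such names were at 0 less often, in 3 of 9 rows (33.3%). Both classes together had 28 of 35 rows (80%) at 0. The classes were drawn after the 0 of miR-103a-3p was seen, so their shares are a description.

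Names made by several hairpins were at 0 about as often as all rows, of which 25.2% were. Of 130 rows from 2 or more RefSeq hairpins with no such partner, 29 (22.3%) were at 0, against 506 of 2060 (24.6%) from a single hairpin. miR-16-5p, which like miR-103a-3p comes from 2 hairpins, had 276007 counts in all. Where opposite strands share at least 18 bases but neither sequence lies whole inside the other, 18 of 56 rows (32.1%) were at 0. These counts cover the 2264 rows that could be matched to a RefSeq sequence, and their part in the 0 of miR-103a-3p was not tested. No level is given for miR-103a-3p, and its absence from the tables is read only as being listed at 0. The 23 rows of other species named miR-103 or miR-107 also total 0.

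**Figure D1:**
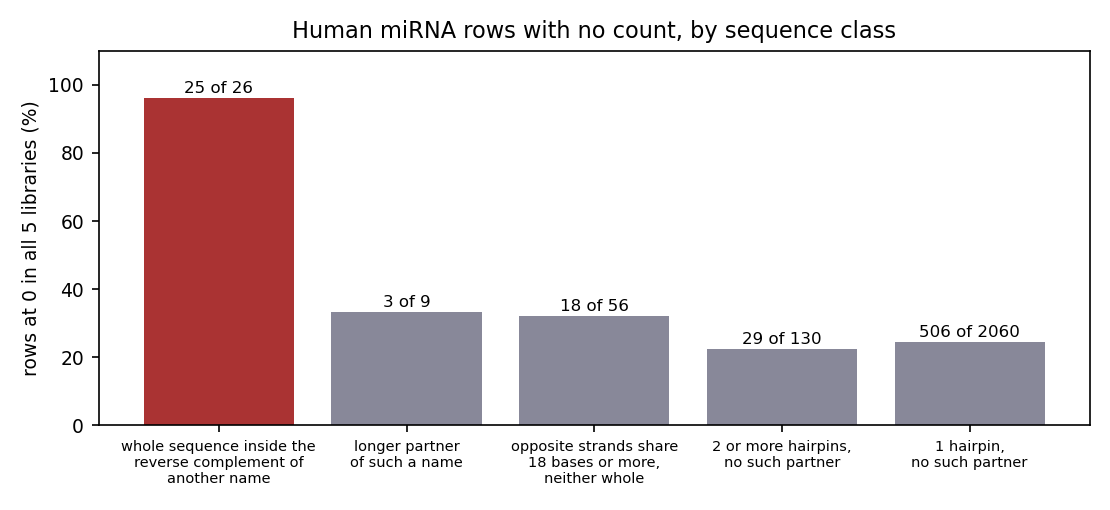
Share of human miRNA rows at 0 in all 5 libraries (vertical axis, percent) by sequence class (bars, with the number of rows above each). The class that holds miR-103a-3p and miR-103b stands at 96.2%, and the other 4 classes at 22.3% to 33.3%.

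Before any comparison, attached replicate 2 stood apart from the other libraries. Across 697 tested rows its Spearman correlation with the others was 0.812 to 0.857, against 0.927 to 0.961 among the other 4, and its human miRNA total was the lowest of the 5. Values without it are given beside the results for the members and for the miRNAs whose call it decides. The 7 epithelial markers were all tested and summed to 55593 to 98808 CPM per library, the lowest in attached replicate 2. Blood cell markers summed to at most 23.1 CPM. The 6 fibroblast markers summed to 4.96, 16.1 and 4.08 CPM on uncoated plates, against 58.2 and 14.8 CPM on poly-HEMA. Most of each sum was miR-143-3p and miR-145-5p, at 39.7 and 17.0 CPM in detached replicate 1. The remaining miR-199a-5p, miR-199a-3p, miR-214-3p and miR-10b-5p had 26, 39, 3 and 6 counts in all and were not tested. Muscle and liver markers summed to at most 1.48 CPM in 4 libraries and to 11.9 CPM in detached replicate 1, with miR-133a-3p at 0. Their part in the results was not tested.

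miR-107 was counted 1490, 44 and 1176 times in the attached libraries, against 2694 and 3738 times once cells were detached. Scaled to the total of human miRNA rows with TMM factors, these counts are 130, 6.68 and 99.9 CPM on uncoated plates, against 172 and 284 CPM on poly-HEMA. Both detached libraries were above all 3 attached ones, and attached replicate 2 was far below the rest. Groups parted in this way in 104 of 697 tested rows (14.9%). Scaled to the total alone, miR-107 stood at 123, 5.00 and 114 CPM, against 171 and 355 CPM after detachment.

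The mean of miR-107 was 78.8 ± 64.2 CPM on uncoated plates (SD, n = 3), against 228 ± 79.8 CPM on poly-HEMA (SD, n = 2). edgeR's quasi-likelihood test over all 697 rows gave a log2 fold change of 1.53 (SE 1.03), a 2.89-fold higher level in detached cells that did not pass (unadjusted p 0.173, edgeR adjusted p 0.765). Leaving out attached replicate 2 gave 0.98 (SE 0.51, 1.98-fold, unadjusted p 0.0707, edgeR adjusted p 0.445). Neither miR-107 nor miR-103a-2-5p was called in either fit. For the whole table edgeR called 0 rows higher and 0 lower (0%), with 33 (4.73%) higher and 16 lower at unadjusted p under 0.05. DESeq2, run without edgeR's low-count filter, gave p-values for 1916 rows and called 12 higher and 0 lower. Its own default filter on mean count, applied before the p-values are adjusted, was left on. The fit that left out attached replicate 2 called 22 of 679 rows higher (3.24%) and 1 lower (0.147%), with 65 (9.57%) higher and 24 lower at unadjusted p under 0.05. Leaving that library out removes the attached library that deviates most, so p-values without it may be too small.

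In the authors' deposited table miR-107 had a log2 fold change of 1.14 (SE 0.88, adjusted p 0.998), and miR-103a-2-5p one of 0.28 (SE 0.80, adjusted p 0.998).

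miR-107 ranked 150 and 163 among 2565 rows by count in attached replicates 1 and 3 and 130 and 113 in the detached libraries, but 365 in attached replicate 2. Its 95% Wilson interval, unscaled, was 3.72 to 6.71 CPM in attached replicate 2 and 108 to 121 CPM in attached replicate 3. Such intervals and limits hold for counting error alone, as the labels name no molecular identifiers and reads may be copies of 1 molecule.

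The passenger arm miR-103a-2-5p stood at 22.8, 6.07 and 31.5 CPM on uncoated plates, against 23.3 and 32.1 CPM on poly-HEMA. It was low in attached replicate 2, and the other attached libraries lay beside the detached ones, so the groups overlap. The means were 20.1 ± 12.9 CPM (SD, n = 3) and 27.7 ± 6.22 CPM (SD, n = 2). The log2 fold change was 0.46 (SE 0.77, edgeR adjusted p 0.891) with all libraries and 0.022 (SE 0.49, edgeR adjusted p 0.992) without attached replicate 2.

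**Figure D2:**
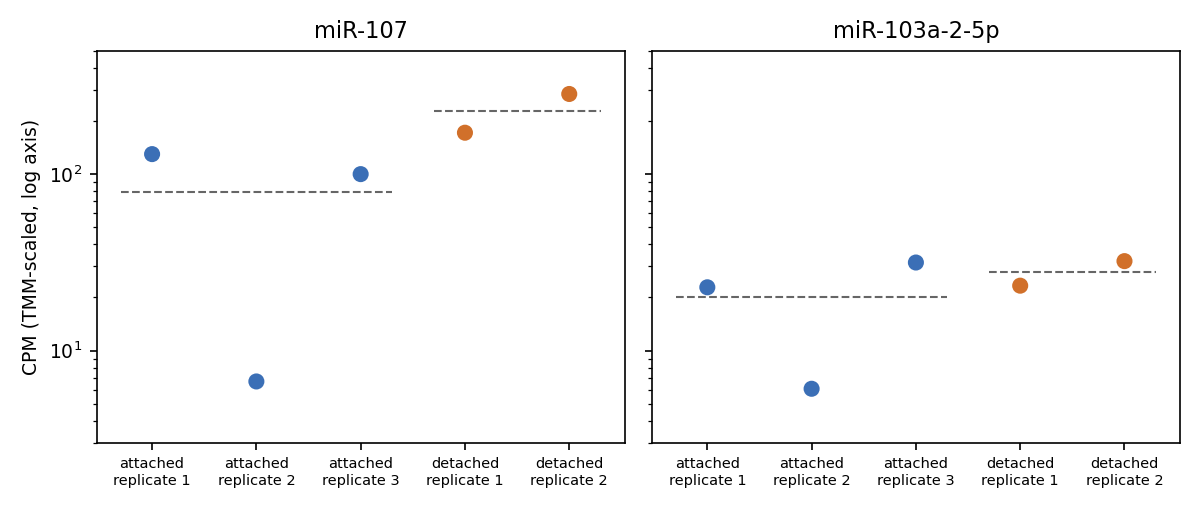
Level of miR-107 (left) and miR-103a-2-5p (right) in each library, in TMM-scaled CPM on a log axis, with dashed lines at the group means. miR-107 runs from 6.68 to 130 CPM in attached (blue) and is 172 and 284 CPM in detached libraries (orange), while the groups of miR-103a-2-5p overlap.

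The ratio of the counts under these names needs no scaling. There were 5.69, 1.10 and 3.17 counts of miR-107 per count of miR-103a-2-5p on uncoated plates, against 7.36 and 8.86 on poly-HEMA. The log2 ratio averaged 1.44 ± 1.20 on uncoated plates (SD, n = 3), against 3.01 ± 0.19 on poly-HEMA (SD, n = 2), a difference of 1.58. The detached ratios lay above all the attached ones, as the levels of miR-107 alone already did. How often other pairs of rows part in this way was not counted. The two-sided exact permutation p, taken as 2 times the smaller one-sided p, was 0.2. That is the smallest value 10 splits of 5 libraries can give when p is taken so. Leaving out attached replicate 2 gave a difference of 0.93. The ratio was chosen after the values were seen, and it sets arms of different hairpins side by side.

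In attached replicate 2, miR-107 departed further downward than nearly all other rows. On the log2(CPM + 1) scale its departure from the mean of attached replicates 1 and 3 was -3.90, and 13 of 697 rows lay lower. Over all rows the median departure was -0.19 (SD 1.53). For miR-103a-2-5p the departure was -1.98, which ranked 69 from the bottom. Attached replicate 2 was the lowest library for both, as it was for 287 of 697 rows (41.2%).

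**Figure D3:**
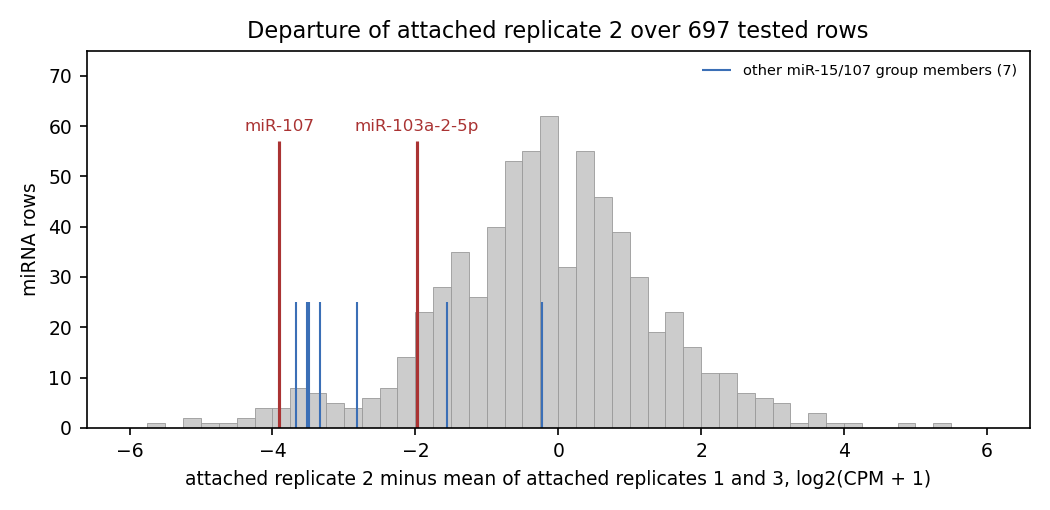
Histogram over 697 tested rows of the level in attached replicate 2 minus the mean of attached replicates 1 and 3, in log2(CPM + 1). Red lines mark miR-107 at -3.90 and miR-103a-2-5p at -1.98, and blue lines mark the 7 tested other members of the miR-15/miR-107 group.

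Beyond its own family, miR-107 belongs to the miR-15/miR-107 group, whose members hold the letters AGCAGC near their 5′ end and include the cell cycle and apoptosis regulators miR-15 and miR-16. The sequences of the 7 tested other members are shown because most of them share with miR-107 both these letters and a low level in attached replicate 2. Capitals mark bases 2 to 8. AGCAGC, searched in the miRNA strand as written, falls on bases 2 to 7 here and on bases 1 to 6 in miR-107 and miR-103a-3p, so their seeds are offset by 1 base.
hsa-miR-15a-5p: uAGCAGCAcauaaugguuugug
hsa-miR-15b-5p: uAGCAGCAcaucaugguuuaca
hsa-miR-16-5p: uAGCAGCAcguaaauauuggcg
hsa-miR-195-5p: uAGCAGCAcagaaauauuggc
hsa-miR-424-5p: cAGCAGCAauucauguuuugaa
hsa-miR-497-5p: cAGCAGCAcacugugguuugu
hsa-miR-503-5p: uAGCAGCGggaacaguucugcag

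Of the group's 9 other members, 7 passed the low-count filter, and miR-646 and miR-6838-5p had 10 and 6 counts in all. 6 of the 7 had positive log2 fold changes and 0 were called by edgeR, with 0 at unadjusted p under 0.05. Their median was 0.56, beside -0.039 over all 697 rows, of which 48.8% were positive. With attached replicate 2 left out, 5 of 7 were positive and the median was 0.036, beside -0.058 over 679 rows, of which 47.0% were positive.

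The highest log2 fold changes belonged to miR-15b-5p and miR-15a-5p, each transcribed together with a miR-16 hairpin. miR-15b-5p stood at 1659, 158 and 2447 CPM on uncoated plates, against 5149 and 5743 CPM on poly-HEMA (1.94, SE 0.94, edgeR adjusted p 0.699). miR-15a-5p stood at 1573, 149 and 1442 CPM, against 2167 and 4903 CPM after detachment (1.74, SE 0.92, edgeR adjusted p 0.707). In both, as in miR-107 and in 14.9% of all tested rows, the detached libraries lay above all the attached ones. With attached replicate 2 left out they gave 1.40 (SE 0.47, edgeR adjusted p 0.129) and 1.22 (SE 0.50, edgeR adjusted p 0.254).

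The other members overlapped between groups. miR-16-5p, which shares transcripts with both of these, stood at 7018, 443 and 3505 CPM on uncoated plates, against 3884 and 6869 CPM on poly-HEMA (0.56, SE 0.95). miR-195-5p and miR-497-5p, from one cluster, gave 0.63 (SE 0.93) and 0.40 (SE 0.72). miR-424-5p and miR-503-5p, from another, gave 0.32 (SE 0.94) and -0.47 (SE 0.65). Their edgeR adjusted p ran from 0.884 to 0.949. Leaving out attached replicate 2, miR-424-5p changed sign (-0.21, SE 0.48).

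Attached replicate 2 was the lowest library for 6 of these 7, all but miR-503-5p, in which detached replicate 1 was the lowest. Counting miR-107 and miR-191-5p, which holds AGCAGC from base 16, 9 of 603 tested rows with a RefSeq sequence (1.49%) held these letters. Attached replicate 2 was the lowest library in 7 of the 9, with a median departure of -3.33, and in 251 of the other 594 (42.3%), with a median departure of -0.22. Rows that lay lower than miR-107 did not hold these letters, among them miR-18a-5p (-5.50), miR-27a-3p (-4.54) and miR-20a-5p (-4.29). The letters were searched after the members' values were seen, so this is a description, and its cause was not tested.

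**Figure D4:**
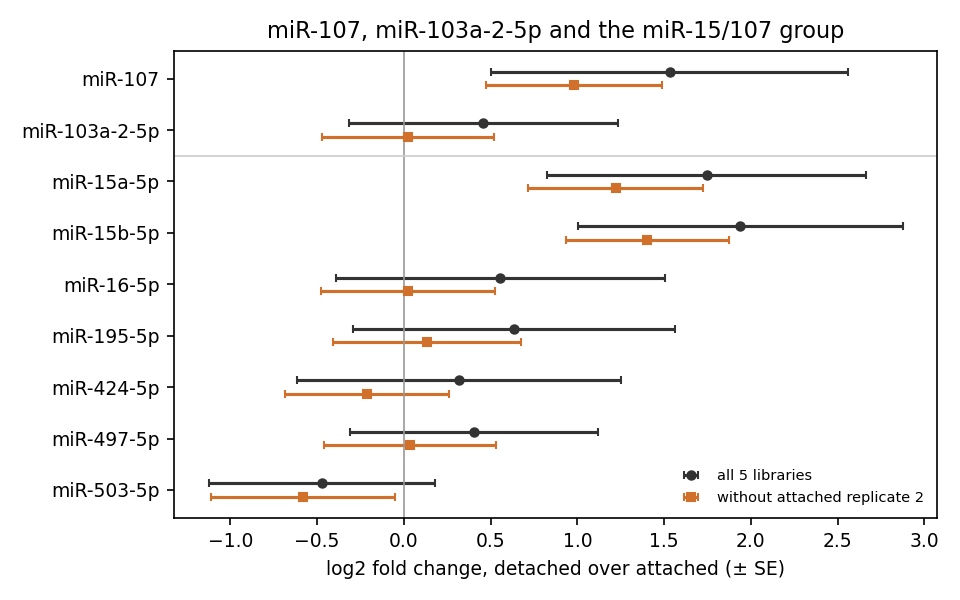
Log2 fold change of detached over attached cells from edgeR (points, with bars of 1 SE) for miR-107, miR-103a-2-5p and 7 other miR-15/miR-107 group members, with all 5 libraries (black) and without attached replicate 2 (orange). miR-107, miR-15a-5p and miR-15b-5p lie highest in both fits, and without attached replicate 2 miR-16-5p, miR-497-5p and miR-103a-2-5p lie near 0.

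By likeness over the 5 libraries, measured as the root mean square difference of log2(CPM + 1) centred on each row's mean, the row nearest to miR-107 among 170 with a mean of at least 100 CPM was miR-15a-5p, at 0.27. It was followed by miR-27a-3p (0.34), miR-130a-3p (0.36), miR-15b-5p (0.41) and miR-296-5p (0.43), against a median of 1.84 over the 170. In all 5 of these attached replicate 2 was the lowest library, which follows largely from choosing rows near the profile of miR-107. The rows nearest to miR-103a-2-5p were miR-17-3p (0.11), miR-423-3p (0.13), miR-148b-3p (0.23), miR-652-3p (0.26) and miR-4454 (0.28), against a median of 0.99. miR-423-3p is thus like miR-103a-2-5p both over libraries and in having its hairpin's other arm at 0.

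Of 6 tested passenger arms of the other group members, 3 had positive log2 fold changes and 0 were called, with 0 at unadjusted p under 0.05. Their median was -0.016, and 1 of 6 was positive without attached replicate 2 (median -0.23). The smallest p among them belonged to miR-15a-3p (0.86, SE 0.70), miR-16-1-3p (-0.45, SE 0.63) and miR-497-3p (0.32, SE 0.69). Attached replicate 2 was the lowest library for 4 of the 6 passenger arms, with departures of -3.99 in miR-16-2-3p and -3.36 in miR-15b-3p. In miR-15a-3p and miR-16-1-3p it was not the lowest, and the departures were 0.89 and 0.67.

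Among 34 tested arms from introns of other protein-coding genes, 17 were positive and 0 were called, with 1 lower at unadjusted p under 0.05 and a median of -0.067. Like miR-107, these lie inside a host gene. miR-186-5p (-4.45, SE 1.75) and miR-25-3p (-2.92, SE 1.32) were highest in attached replicate 2, where miR-107 was lowest, and without it gave -0.69 (SE 0.48) and -0.61 (SE 0.56). With no low-count filter miR-186-5p was called lower (edgeR adjusted p 0.00105). The third by p was miR-15b-5p, described above. With attached replicate 2 left out, 10 of 34 were positive, with a median of -0.14.

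Of 8 tested miRNAs of lipid and insulin metabolism, processes for which miR-103 and miR-107 are known, 4 were positive and 0 were called, with 1 higher and 1 lower at unadjusted p under 0.05. The 2 arms of MIR33B, which lies in the gene of the lipid regulator SREBF1, had log2 fold changes of opposite sign. So did miR-33a-5p (-1.76, SE 1.34) and miR-33a-3p (1.23, SE 1.16) on the same list. miR-33b-3p stood at 2.18, 2.12 and 6.97 CPM, against 13.3 and 47.7 CPM after detachment (3.01, SE 0.85, edgeR adjusted p 0.380). Without detached replicate 2, which held 627 of its 957 counts, miR-33b-3p gave a log2 fold change of 1.86. miR-33b-5p stood at 311, 114 and 55.9 CPM, against 37.9 and 35.5 CPM after detachment (-2.13, SE 0.88, edgeR adjusted p 0.654). Without attached replicate 1, which held 3568 of its 6038 counts, miR-33b-5p gave -1.23. miR-143-3p, which is also on the list of fibroblast markers, stood at 3.31, 14.1 and 2.12 CPM, against 39.7 and 7.38 CPM after detachment, and the groups overlap (1.86, SE 1.00). It gave 0.26 (SE 1.19) without detached replicate 1. With attached replicate 2 left out, edgeR called miR-33b-3p (2.72, SE 0.69, edgeR adjusted p 0.0393) and miR-143-3p (3.12, SE 0.71, edgeR adjusted p 0.0225), 2 of the 8, beside 3.24% of all rows called higher in that fit. Of the 8, 5 were positive, beside 47.0% of all rows. DESeq2, with its own default filter on mean count, also called miR-33b-3p with all libraries (adjusted p 0.0485).

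The miR-200 family, which restrains the change of epithelial cells to a mesenchymal state, had 4 of 5 members positive and 0 called, with a median of 0.33, and 0.48 without attached replicate 2. By smallest p its members were miR-200b-3p (1.01, SE 0.68), miR-141-3p (-0.69, SE 0.52), which had the opposite sign, and miR-200c-3p (0.83, SE 0.73).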

How the data were processed

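Members and lists were chosen with earlier results of these data known. The deposited tables hold raw read counts per named small RNA, not normalized, from 50 µg of total RNA size-selected at 18 to 24 nt, per the labels' protocols. The submitters' processing notes name hg38 and DESeq2 without roles; the aligner, counter and treatment of multiply matching reads: not given in the sources used here. The authors' deposited comparison table gives log2 fold changes, a test score, p-values and size-factor-scaled counts (unit: signal), of which 100% came out as whole reads (tolerance 0.01) and 100% equalled the raw counts; edgeR on these reads, an alternative chosen after seeing the data, called 0 miRNAs higher and 0 lower.

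Detached was compared with attached over the human miRNA rows, with library size their total, in edgeR 4.0.16 (TMM, quasi-likelihood F test, two-sided, Benjamini-Hochberg, R 4.3.3), after filterByExpr with minimum count 10 and total 15, which kept 697 rows. A call is an adjusted p under 0.05. Named miRNAs were the members, all tested miR-15/miR-107 members, the 3 smallest p per list and the 5 nearest rows, with some others named for comparison. For nearness miR-103a-2-5p replaced miR-103a-3p, which is at 0. The planned test of the share of miR-107 in the sum with miR-103a-3p was not made: it is 100% in every library. Human miRNA totals were 8805009 to 15793173. Alternatives were DESeq2 1.42.0 (without filterByExpr, with its default filter on mean count), limma-voom 3.58.1, other scaling, filters and rows, a replicate block and leaving out each library. Mature and hairpin sequences come from RefSeq, GRCh38.p14. No libraries of a group were duplicates (chi-square over degrees of freedom 606 to 3834).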

Additional observations from a re-analysis of the deposited data

How the results depend on the processing

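miR-107 kept a positive log2 fold change in all 13 alternatives, from 0.98 to 2.88, and miR-103a-2-5p in all 12 that could be run; neither was called in any. The sum of miR-103a-3p and miR-107 equals miR-107, since miR-103a-3p is at 0 in every library and gave no value in any setting. At 100 CPM in 2 libraries miR-103a-2-5p was not tested. Without the TMM factors the median over all rows moved from -0.039 to 0.20, and miR-107 gave 1.71. Leaving out each library in turn gave 0.98 to 2.09 for miR-107 and 0.022 to 0.92 for miR-103a-2-5p. The replicate block gave 2.88 (SE 1.75) for miR-107 and 1.20 (SE 1.33) for miR-103a-2-5p and called 0 miRNAs. No detached library is numbered 3, so attached replicate 3 adds nothing to the fold changes of that fit. They rest more heavily on attached replicate 2. Labels give no shared source for equal numbers, so the numbers were not taken as pairs. Same-numbered libraries correlated at -0.26 and -0.23 in their deviations from the group means. The deviations of the 2 detached libraries mirror each other, so these correlations cannot decide whether numbers are pairs.

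The count of miRNAs called higher was 0 with edgeR on 697 filtered rows and 14 with edgeR on 1918 unfiltered rows. It was 12 with DESeq2, which gave p-values for 1916 rows and applied its default filter on mean count before adjustment. Leaving out each library gave 0 to 22. The count called lower was 0, 5 with no low-count filter and 0 to 1 leaving out each library. The seed group's median log2 fold change ran from 0.036 to 1.44. Signs changed without attached replicate 2 for miR-424-5p (-0.21; range leaving out each library -0.21 to 0.94), miR-497-3p (-0.031; -0.031 to 0.55), miR-142-3p (-0.11; -0.11 to 1.01) and miR-486-5p (0.55; -0.41 to 0.55). miR-486-5p also changed sign with limma-voom (0.059), without TMM factors (0.22) and without detached replicate 2 (0.13), and miR-1-3p without detached replicate 1 (-2.78; -2.78 to 4.27). Calls were gained in 12 cases: miR-33b-3p, miR-203a-3p and miR-145-5p with DESeq2, with no low-count filter and without attached replicate 2, miR-143-3p without attached replicate 2, and miR-186-5p (edgeR adjusted p 0.00105) and miR-1-3p (edgeR adjusted p 0.0268) with no low-count filter. The causes were not tested.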

Other observations

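The markers of other cell types had few tested members. Of the fibroblast markers, miR-145-5p stood at 0.958, 0.911 and 0.340 CPM on uncoated plates, against 17.0 and 6.16 CPM on poly-HEMA (log2 fold change 3.98, SE 0.78, edgeR adjusted p 0.146). It was called higher without attached replicate 2 (4.15, SE 0.71, edgeR adjusted p 0.00273), as was the other tested fibroblast marker, miR-143-3p (3.12, SE 0.71). Among blood cell markers miR-451a gave 1.36 (SE 0.79), miR-142-3p 0.37 (SE 0.85) and miR-486-5p -0.11 (SE 0.71). The epithelial marker with the smallest p was miR-203a-3p (3.42, SE 0.73, edgeR adjusted p 0.170), which was called higher without attached replicate 2 (3.61, SE 0.64, edgeR adjusted p 0.00329). DESeq2, and edgeR with no low-count filter, also called miR-145-5p (adjusted p 0.00169 and 0.00220) and miR-203a-3p (0.00169 and 0.00567). The muscle marker miR-1-3p had 183 of its 204 counts in detached replicate 1 (3.24, SE 1.59).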
